A study of Caenorhabditis elegans with 14 samples.

Results

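The 47 glutathione S-transferase genes of *C. elegans* were described in RNA-seq libraries of wild-type and *skpo-1* mutant worms on *E. coli* and on *E. faecalis*. They were chosen by name alone, as every listed gene whose WormBase symbol is *gst* or *gsto* followed by a number, and make up 47 of 21982 genes in the count table. No expression value entered this naming rule, but the family was taken up with earlier results of these data known. On the 6 chromosomes, 25 of the genes lie on II, 9 on V, 4 each on III and IV, 3 on X and 2 on I (WBcel235).

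The libraries were made from whole worms that met the bacteria as L4 larvae, stayed on them for 16 h and were collected as day 1 adults. Wild type was strain N2, and the mutant was strain GF89 with the *skpo-1*(ok1640) II deletion, so the mutant genotype rests on 1 strain. SKPO-1 is a heme peroxidase of the worm's epidermis. The groups were N2 on *E. coli* OP50 (4 libraries), N2 on *E. faecalis* OG1RF (3), *skpo-1* on *E. coli* OP50 (3) and *skpo-1* on *E. faecalis* OG1RF (4). The *E. faecalis* plates were of BHI agar with gentamycin, while worms were otherwise kept on NG agar with *E. coli*, so bacterium and plate medium cannot be told apart.

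Glutathione S-transferases join glutathione, a small cysteine-containing peptide, to reactive and electrophilic compounds, which makes these compounds more soluble and ready for export. The family is expanded in nematodes, and many of its genes respond to oxidants, drugs and plant toxins, in part through the transcription factor SKN-1, the worm relative of Nrf2. The omega class carries a cysteine at its catalytic site and is known for thiol transfer and dehydroascorbate reduction. Below, omega class means the members named *gsto*. The other members bear the name *gst*, and none of them was checked for this class by sequence. Worms infected with *E. faecalis* are known to release reactive oxygen themselves.

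Depth was 15174830 to 36682565 counts per library, and every pair of replicates differed beyond sampling noise. Levels are given as CPM, a gene's count relative to the total count of its library, after TMM scaling for library composition. The mutated gene had 297 ± 13.2 CPM (SD, n = 4) in N2 on *E. coli*, 146 ± 46.4 (n = 3) in N2 on *E. faecalis*, and 2.49 ± 0.156 (n = 3) and 1.83 ± 0.297 (n = 4) in the mutant on the same bacteria. Of the 47 transferases, 43 had enough counts to be tested among 15685 genes. Those left out were *gst-8*, *gst-14*, *gst-25* and *gst-37*, with at most 28 counts in any library. The test was the quasi-likelihood F test of edgeR (edgeR QL test below), its p-values adjusted by Benjamini-Hochberg over all tested genes. Calling a gene higher or lower took an adjusted p below 0.05 together with a fold change of 1 or more on the log2 scale.

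Replicate 2 of N2 on *E. coli* stood apart from the other 3 libraries of its group. Its 43 tested transferases lay a median 0.88 above the other replicates' median on the log2 scale, 18 of them by more than 1, and 36 were above every other replicate. Over all tested genes its median shift was 0.32, with 30.9% of genes beyond 1 in either direction. In the other 13 libraries the members' median shift was -0.32 to 0.23, and 2.71 to 14.7% of all genes were beyond 1.

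The same library was low in markers of several tissues. Its 3 body wall muscle markers summed to 794 CPM against 3791 to 3899 in the other 3 libraries, its 6 yolk genes to 27578 against 116132 to 154996, and its 3 germline markers to 796 against 1242 to 1348. Replicate 4 of *skpo-1* on *E. faecalis* was also low, with 480.2 CPM of muscle markers against 1718 to 2171 and 26204 of yolk against 62458 to 98992, but its transferases were not shifted (median -0.05). Whether these differences contributed to the transferase values was not tested. Each call of a transferase below that turns on replicate 2 of N2 on *E. coli* is therefore given with and without it.

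**Figure D1:**
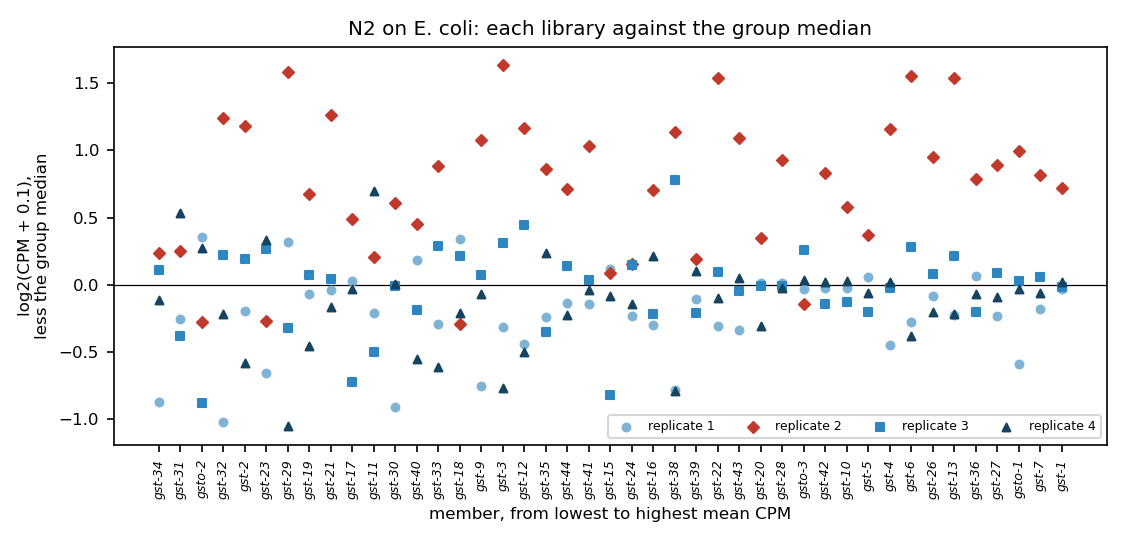
Deviation of each N2 on *E. coli* library from its group median (y axis, log2 of CPM with 0.1 added) for the 43 tested transferases, ordered on the x axis from the lowest to the highest mean CPM, with 1 symbol per replicate. The diamonds of replicate 2 lie above the other 3 replicates for 36 of 43 genes.

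As a sum over the 47 members, transferase transcripts made up 526, 1017, 576 and 551 CPM in the N2 libraries on *E. coli* (replicates 1 to 4) and 839, 532 and 522 CPM on *E. faecalis*. In *skpo-1* they made up 576, 530.2 and 559 CPM on *E. coli* and 948, 904, 821 and 842 CPM on *E. faecalis*. The mutant's groups did not overlap, whereas in N2 the range on *E. faecalis* overlapped the range on *E. coli*. The N2 range on *E. coli* owes its upper end to replicate 2, without which it spanned 526 to 576 CPM. Even so it overlapped the range on *E. faecalis*, where only replicate 1 (839 CPM) lay above it. In bulk RNA, fewer cells of a type and less RNA per cell cannot be told apart.

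A single gene, *gsto-1*, went from a minor to a major share of this sum. It made up 0.931 to 1.46% of the family's CPM in N2 on *E. coli* but 14.1 to 23.2% on *E. faecalis*, and 0.591 to 0.875% and 19.4 to 23.1% in *skpo-1*. Without it, the other 46 members summed to 521 to 1002 CPM in N2 on *E. coli*, against 414 to 644 on *E. faecalis*, and to 527 to 572 and 649 to 729 in *skpo-1*. The mutant's groups therefore stayed apart without *gsto-1*.

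**Figure D2:**
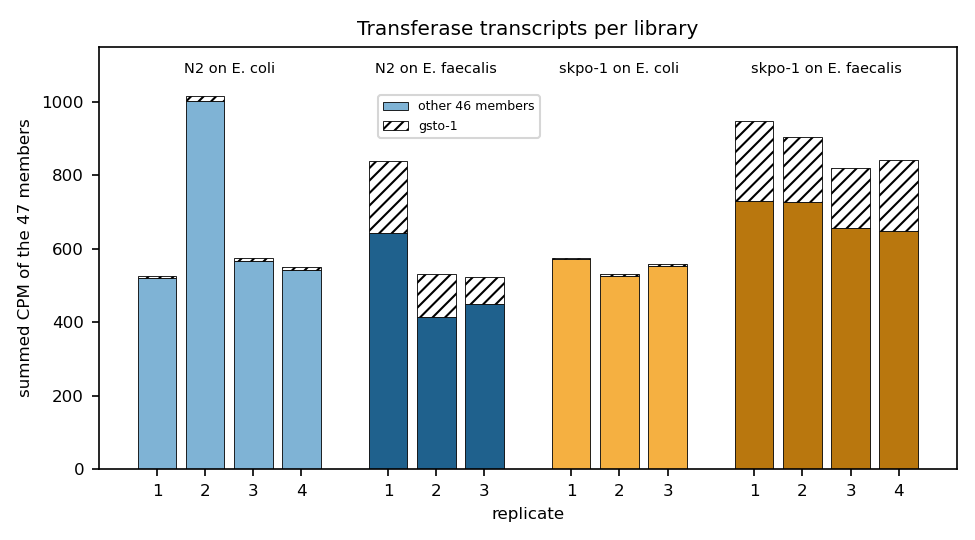
Summed CPM of the 47 transferases in each of the 14 libraries (bars, y axis), by group and replicate, with the part of *gsto-1* hatched. The *skpo-1* libraries on *E. faecalis* reach 821 to 948 CPM against 530.2 to 576 on *E. coli*, and replicate 2 of N2 on *E. coli* reaches 1017.

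Levels were compared between genes as CPM per kb of annotated transcript. Over the 14 libraries *gst-1* was highest with a mean of 230 CPM per kb, followed by *gst-7* with 149 and *gsto-1* with 105. The order changed with the bacterium. By group means *gsto-1* ranked 14th in N2 on *E. coli*, with 10.7 CPM per kb, and had 160.2 on *E. faecalis*, beside 157 for *gst-1*. In *skpo-1* it went from 18th, with 5.03 CPM per kb, to 233, beside 221 for *gst-1*. In single libraries on *E. faecalis* it was first in 2 of 3 in N2 and 2 of 4 in *skpo-1* and second to *gst-1* in the others, so the order of these 2 genes there lay within the spread of the libraries. Without replicate 1 of N2 on *E. faecalis* the N2 means were 119 for *gsto-1* and 127 for *gst-1*. *gst-1* and *gst-7* ranked first and second on *E. coli* in both genotypes.

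The first question was which transferases changed on *E. faecalis* in wild type. In N2, 8 of 43 tested members were called higher (18.6%, against 19.2% of all tested genes) and 3 lower (6.98%, against 4.1% of all tested genes), and 18 had an unadjusted p below 0.05 (background 48.8%). The share called higher was thus near the background of this broad response. The median log2 fold change over the members was 0.24, against 0.03 over all genes. Positive changes made up 25 of 43, against 51.2% of all genes. Libraries did not overlap for 9 members in the upward direction (background 22.6%) and for 6 in the downward direction (14.9%).

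In *skpo-1*, 10 of 43 members were called higher on *E. faecalis* (23.3%, against 10% of all tested genes) and 0 lower (against 1.76%). At an unadjusted p below 0.05, 21 members had changed (background 38.3%), and DESeq2's Wald test called 12 higher (11.2% of all genes) and 0 lower (2.5%). The median log2 fold change was 0.72, against 0.12 over all genes, and 35 of 43 were positive (55.7% of all genes). Libraries did not overlap for 20 members in the upward direction (background 25.6%) and for 4 in the downward direction (20.1%). In all, 15 members were called in at least 1 of the 2 genotypes and 28 in neither. Those called higher in both were *gsto-1*, *gsto-2*, *gst-6*, *gst-17*, *gst-18* and *gst-19*, 6 of 8 in N2 and 6 of 10 in *skpo-1*.

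These counts shifted with single libraries. Without replicate 2 of N2 on *E. coli*, 41 members were tested, of which 11 were called higher in N2 (26.8%, background 23.4%) and 2 lower (background 3.47%), and 14 were called higher in *skpo-1* (34.1%, background 13.1%). The mutant's count moved although none of its own libraries had been left out, in a fit where all groups share 1 estimate of the spread. With replicate 4 of *skpo-1* on *E. faecalis* left out as well, 42 were tested, with 11 higher (background 23.5%) and 2 lower (3.6%) in N2 and 11 higher (10.9%) in *skpo-1*. The count of members lower in N2 was 6 without replicate 1 of N2 on *E. faecalis* (background 6.72%, with *gst-1*, *gst-30* and *gst-44* added) and 5 without replicate 1 of N2 on *E. coli* (4.67%, with *gst-30* and *gst-44* added).

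**Figure D3:**
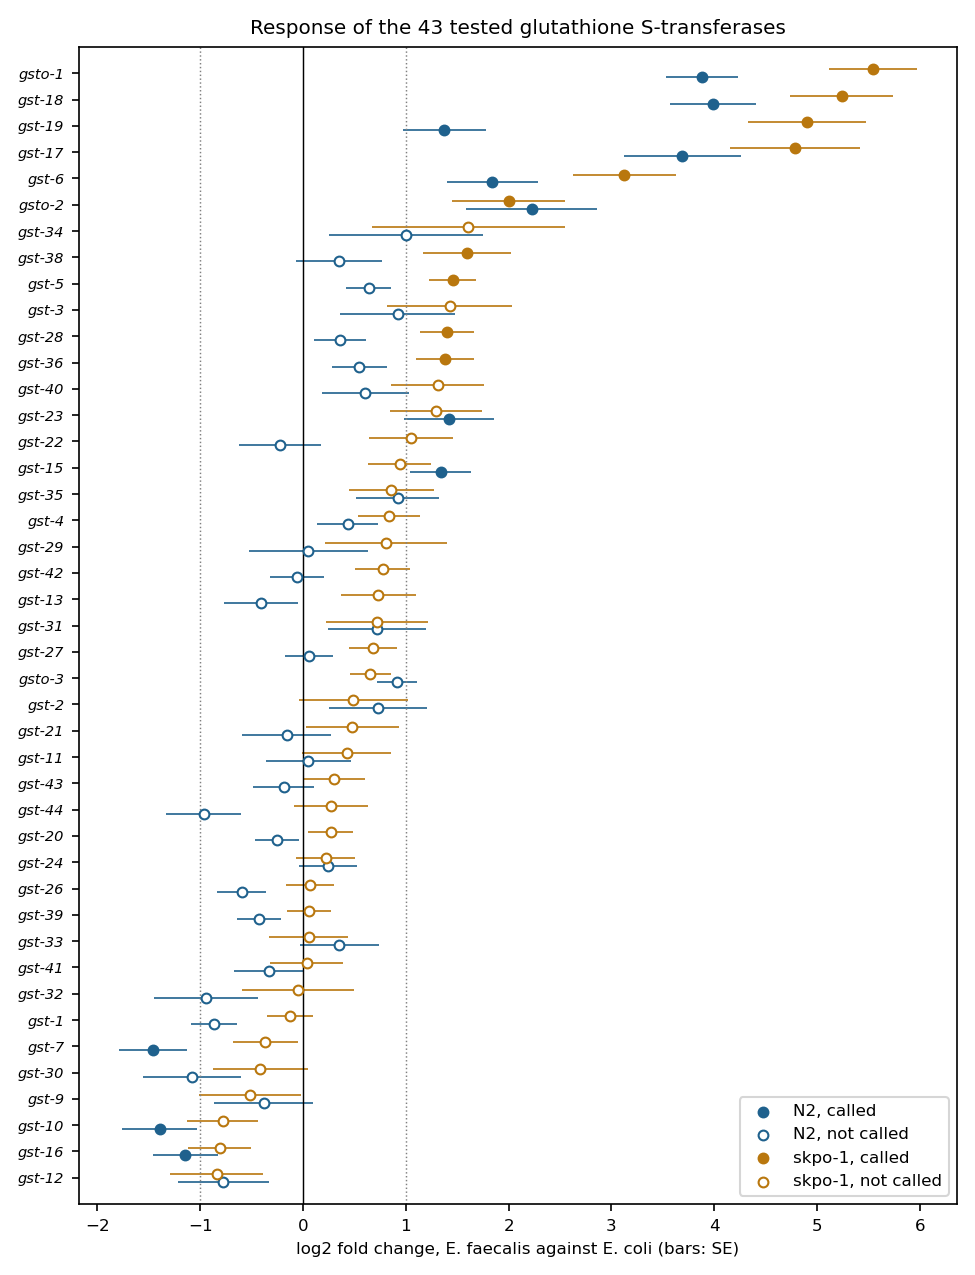
Fitted log2 fold change on *E. faecalis* against *E. coli* (x axis, bars SE) for each of the 43 tested transferases (rows) in N2 and *skpo-1*, filled where called. *gsto-1*, *gst-17*, *gst-18* and *gst-19* reach 4.79 to 5.55 in *skpo-1*. The point of *skpo-1* lies to the right of that of N2 for 33 of 43 genes, against 53.1% of all tested genes.

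Of the omega class, *gsto-1* (WBGene00016204, III 7945542 to 7947018, minus strand) was the most strongly upregulated well-counted member. In N2 it had 4.90, 14.8, 7.56 and 7.25 CPM on *E. coli* and 195, 119 and 73.7 CPM on *E. faecalis*. In *skpo-1* it had 4.14, 3.13 and 4.89 CPM on *E. coli* and 219, 176, 165 and 192 CPM on *E. faecalis*. Every library on *E. faecalis* lay above every library on *E. coli* in both genotypes, with no overlap. The log2 fold change was 3.88 in N2 (SE 0.354, adjusted p = 7.13e-06) and 5.55 in *skpo-1* (SE 0.427, adjusted p = 1.42e-06, edgeR QL test).

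*gsto-1* overlaps *kle-2*, a condensin subunit gene, on the opposite strand, and whether the libraries kept strand is not given in the sources used here. For *kle-2* the log2 fold changes had the opposite sign, -0.43 in N2 (adjusted p = 0.0635) and -0.63 in *skpo-1* (adjusted p = 0.0225, edgeR QL test).

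*gsto-2* (WBGene00015337, III 8554772 to 8555744) was rare and rose in both genotypes. It had 2, 2, 0 and 2 counts in N2 on *E. coli* against 11, 9 and 9 on *E. faecalis*, and 7, 3 and 3 against 11, 20, 14 and 24 in *skpo-1*, or 0 to 0.136 against 0.244 to 0.486 CPM and 0.117 to 0.218 against 0.489 to 0.943 CPM. The groups did not overlap in CPM in either genotype. The log2 fold change was 2.22 in N2 (SE 0.633, adjusted p = 0.0145) and 2.0 in *skpo-1* (SE 0.550, adjusted p = 0.0227, edgeR QL test). The ratio of pooled CPM was 4.97 in N2 (95% interval 2.03 to 14.6) and 4.03 in *skpo-1* (2.21 to 7.95), intervals that cover counting error only. The call in *skpo-1* was lost without replicate 1 (2.21, adjusted p = 0.0783) or 2 (1.76, adjusted p = 0.104) on *E. coli* or replicate 4 on *E. faecalis* (1.86, adjusted p = 0.0588, edgeR QL test).

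*gsto-3* (WBGene00019636, III 378137 to 381298), the third gene named *gsto*, changed by less than the fold limit. It had 8.58 to 11.4 CPM in N2 on *E. coli* against 13.7 to 21.6 on *E. faecalis*, and 9.16 to 11.8 against 14.3 to 18.9 in *skpo-1*, with no overlap. The log2 fold change was 0.92 in N2 (SE 0.196, adjusted p = 0.0034) and 0.65 in *skpo-1* (SE 0.201, adjusted p = 0.035, edgeR QL test). Without replicate 1 of N2 on *E. faecalis* its change in N2 passed the limit (1.06).

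*gst-17* (WBGene00001765, II 13628059 to 13630790), *gst-18* (WBGene00001766, II 13629799 to 13630887) and *gst-19* (WBGene00001767, II 13625545 to 13627145) lie side by side on the minus strand and had few counts on *E. coli*. *gst-17* had 1, 5, 0 and 1 counts in N2 on *E. coli* and 26, 32 and 30 on *E. faecalis*. The mutant had 2, 2 and 0 counts against 29, 70, 27 and 32. As CPM these are 0.0681, 0.131, 0 and 0.0615 against 1.15, 0.975 and 0.814 in N2, and 0.0622, 0.0783 and 0 against 1.29, 2.27, 1.70 and 1.258 in *skpo-1*. Both groups on *E. faecalis* were wholly above those on *E. coli*. The pooled ratio was 12.9 in N2 (95% counting interval 6.02 to 33.1) and 30.02 in *skpo-1* (11.5 to 112), and the adjusted p was 0.000578 and 0.00023 (edgeR QL test). Of the 7 counts of *gst-17* in N2 on *E. coli*, 5 came from replicate 2, and without it the log2 fold change went from 3.69 (SE 0.570) to 4.55.

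*gst-18* behaved like its neighbour. It had 0.136, 0.0523, 0.116 and 0.0615 CPM in N2 on *E. coli* against 1.46, 1.55 and 1.33 on *E. faecalis*. In *skpo-1* it had 0.0622, 0.0391 and 0 against 1.999, 1.78, 1.63 and 1.45 CPM. The groups on *E. coli* rest on 8 counts in N2 and 3 in *skpo-1*, and no library on *E. faecalis* came near them. The pooled ratio was 17.1 in N2 (95% counting interval 8.43 to 40.4) and 41.3 in *skpo-1* (13.9 to 202), with log2 fold changes of 3.99 (SE 0.417, adjusted p = 2.42e-05) and 5.24 (SE 0.501, adjusted p = 1.40e-05, edgeR QL test). Without replicate 1 of *skpo-1* on *E. coli* the latter was 5.86. *gst-17* and *gst-18* share 351 exonic bases on the same strand, out of 1085 and 594, so reads from those bases cannot be told apart between them.

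*gst-19* rose in both genotypes from different starting levels. In N2 it had 0.272, 0.523, 0.310 and 0.184 CPM on *E. coli* and 0.795, 0.975 and 0.896 on *E. faecalis*. The mutant had 0.0311, 0.0783 and 0 CPM on *E. coli*, 3 counts in all, and 1.199, 1.88, 1.256 and 1.14 on *E. faecalis*. The mutant's libraries were thus the lowest on *E. coli* and the highest on *E. faecalis*, with no overlap on either bacterium. The log2 fold change was 1.37 in N2 (SE 0.407, adjusted p = 0.0172), a call lost without replicate 2 of N2 on *E. faecalis* (adjusted p = 0.0602). It was 4.90 in *skpo-1* (SE 0.576, adjusted p = 9.11e-05, edgeR QL test), where the pooled ratio was 33.9 (95% counting interval 11.4 to 167) and where leaving out replicate 2 on *E. coli* gave 5.73.

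*gst-6* (WBGene00001754, II 4879891 to 4881105, plus strand) was the remaining member upregulated in both genotypes. It had 4.63, 16.7, 6.86 and 4.30 CPM in N2 on *E. coli* and 51.8, 20.6 and 16.8 on *E. faecalis*. In *skpo-1* it had 5.47, 5.17 and 7.83 CPM on *E. coli* and 65.0, 57.9, 44.0 and 46.3 on *E. faecalis*. The mutant's groups lay far apart, while in N2 the highest library on *E. coli* (16.7) nearly met the lowest on *E. faecalis* (16.8). The log2 fold change was 1.84 in N2 (SE 0.445, adjusted p = 0.00631) and 3.12 in *skpo-1* (SE 0.501, adjusted p = 0.00111, edgeR QL test). The N2 value turned on 2 libraries, at 2.46 without replicate 2 on *E. coli* and 1.14 without replicate 1 on *E. faecalis* (adjusted p = 0.0455, edgeR QL test).

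**Figure D4:**
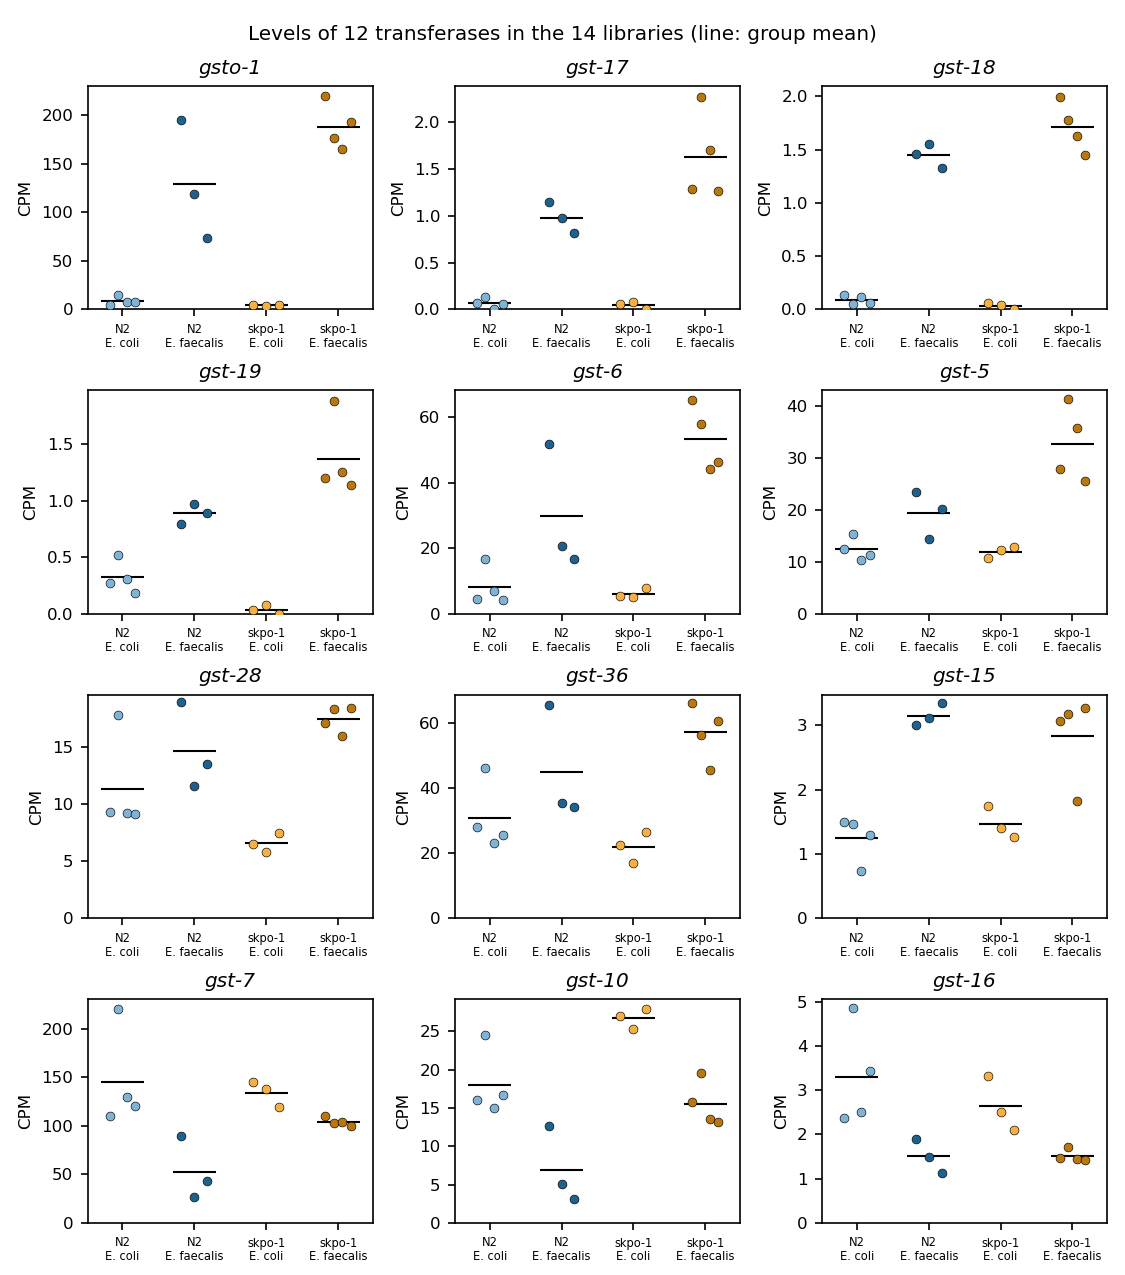
CPM (y axis of each panel, linear from 0) of 12 transferases in the 14 libraries, 1 point per library, with the group mean as a line. For *gsto-1*, *gst-17*, *gst-18* and *gst-19* all points on *E. faecalis* lie above all points on *E. coli* in both genotypes, while for *gst-7* the range is 26.2 to 89.4 CPM in N2 on *E. faecalis* and 100.1 to 109.8 in *skpo-1*.

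Another 4 members, *gst-5*, *gst-28*, *gst-36* and *gst-38*, were called in *skpo-1* but not in N2. *gst-5* (WBGene00001753, II 10950352 to 10951603) had 10.7, 12.3 and 12.9 CPM in *skpo-1* on *E. coli* and 27.9, 41.5, 35.9 and 25.7 on *E. faecalis*. In N2 it had 12.5, 15.5, 10.4 and 11.4 against 23.5, 14.4 and 20.2 CPM. The mutant's groups stood apart and those of N2 overlapped through replicate 2 on each bacterium. On the log2 scale its fitted change was 1.45 in *skpo-1* (SE 0.227, adjusted p = 0.000896) and 0.64 in N2 (SE 0.217, adjusted p = 0.032, edgeR QL test), the latter below the fold limit.

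*gst-28* (WBGene00001776, II 15166194 to 15167577) had 6.53, 5.83 and 7.48 CPM in *skpo-1* on *E. coli* and 17.1, 18.3, 15.9 and 18.4 on *E. faecalis*. In N2 it had 9.32, 17.7, 9.18 and 9.10 against 18.9, 11.6 and 13.5 CPM. In N2 only the 17.7 of replicate 2 on *E. coli* overlapped the libraries on *E. faecalis*. On the log2 scale its fitted change was 1.40 in *skpo-1* (SE 0.263, adjusted p = 0.00325) and 0.36 in N2 (adjusted p = 0.261, edgeR QL test). Without that replicate the N2 value was 0.65 (adjusted p = 0.0111, edgeR QL test), still under the fold limit.

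*gst-36* (WBGene00001784, X 9861646 to 9862960) was the most abundant of the 4 per kb. It had 22.4, 17.1 and 26.4 CPM in *skpo-1* on *E. coli* and 66.0, 56.1, 45.5 and 60.5 on *E. faecalis*. In N2 it had 27.97, 46.2, 23.2 and 25.4 against 65.3, 35.5 and 34.1 CPM, and again replicate 2 on *E. coli* alone overlapped. On the log2 scale its fitted change was 1.38 in *skpo-1* (SE 0.282, adjusted p = 0.00522) and 0.55 in N2 (adjusted p = 0.118), or 0.79 in N2 without that replicate (adjusted p = 0.0154, edgeR QL test). *gst-36* overlaps *scav-5* on the opposite strand, whose change in *skpo-1* was 0.63 (adjusted p = 0.0461, edgeR QL test).

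*gst-38* (WBGene00001786, V 15915162 to 15916070), a gene often used as a readout of SKN-1, was highest in *skpo-1* on *E. faecalis*. The mutant's libraries held 2.10 to 2.27 CPM on *E. coli* against 5.31 to 9.43 on *E. faecalis*, and 0.676 to 2.85 against 1.95 to 2.39 in N2. On the log2 scale its fitted change was 1.60 in *skpo-1* (SE 0.429, adjusted p = 0.0205) and 0.35 in N2 (adjusted p = 0.526, edgeR QL test). The call in *skpo-1* was lost on leaving out any 1 of the 3 libraries on *E. coli* (adjusted p = 0.0813, 0.0744 and 0.0569 for replicates 1 to 3) or replicate 2 on *E. faecalis* (adjusted p = 0.06, edgeR QL test).

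In the other direction, *gst-15* and *gst-23* were called higher in N2 only. *gst-15* (WBGene00001763, II 13611770 to 13613196) had 1.497, 1.47, 0.736 and 1.29 CPM in N2 on *E. coli* and 3.00, 3.11 and 3.34 on *E. faecalis*. The mutant had 1.74, 1.41 and 1.258 against 3.06, 3.18, 1.82 and 3.26 CPM, so it also stood higher there without overlap. Its fitted log2 fold change was 1.34 in N2 (SE 0.297, adjusted p = 0.00412) and 0.94 in *skpo-1* (SE 0.305, adjusted p = 0.0428, edgeR QL test), just under the fold limit. The latter was 1.09 without the low replicate 3 of *skpo-1* on *E. faecalis*.

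*gst-23* (WBGene00001771, V 3243284 to 3244502) had 0.136 to 0.369 CPM in N2 on *E. coli* against 0.543 to 1.04 on *E. faecalis*, and 0.235 to 0.629 against 0.753 to 0.940 in *skpo-1*. Groups did not overlap in either genotype, but those on *E. coli* rest on 25 counts in N2 and 23 in *skpo-1*. Its fitted log2 fold change was 1.42 in N2 (SE 0.439, adjusted p = 0.0212) and 1.29 in *skpo-1* (adjusted p = 0.0548, edgeR QL test). The call in N2 was lost without replicate 1 on *E. coli* (adjusted p = 0.0535) or replicate 2 on *E. faecalis* (adjusted p = 0.128, edgeR QL test).

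The members that fell in N2 were *gst-7*, *gst-10* and *gst-16*. *gst-7* (WBGene00001755, II 4882062 to 4883358), the next gene after *gst-6* on the same strand, had 110.5, 220.3, 130.1 and 120.0 CPM in N2 on *E. coli* and 89.4, 26.2 and 42.9 on *E. faecalis*. In *skpo-1* it had 145, 138 and 119 against 109.8, 102, 104 and 100.1 CPM. Groups did not overlap in either genotype, but the step was wide in N2 and narrow in *skpo-1*. Its fitted log2 fold change was -1.46 in N2 (SE 0.331, adjusted p = 0.00467), or -2.10 without replicate 1 on *E. faecalis*, and -0.37 in *skpo-1* (adjusted p = 0.410, edgeR QL test).

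*gst-10* (WBGene00001758, V 2561690 to 2564645), whose enzyme conjugates the lipid peroxidation product hydroxynonenal, had 16.1, 24.5, 14.96 and 16.7 CPM in N2 on *E. coli* and 12.6, 5.03 and 3.12 on *E. faecalis*. The mutant had 26.9, 25.3 and 27.9 against 15.8, 19.6, 13.5 and 13.2 CPM. On each bacterium all libraries of *skpo-1* were above all libraries of N2, and on *E. faecalis* all were lower than on *E. coli* within each genotype. Its fitted log2 fold change was -1.39 in N2 (SE 0.365, adjusted p = 0.00947) and -0.78 in *skpo-1* (adjusted p = 0.112, edgeR QL test). The N2 value was -2.17 without replicate 1 on *E. faecalis* and was not called without replicate 2 (-1.21, adjusted p = 0.0539, edgeR QL test).

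*gst-16* (WBGene00001764, II 13622967 to 13624440) had 2.38, 4.87, 2.52 and 3.44 CPM in N2 on *E. coli* and 1.90, 1.49 and 1.14 on *E. faecalis*. In *skpo-1* it had 3.33, 2.51 and 2.10 against 1.47, 1.72, 1.44 and 1.41 CPM. The libraries on *E. faecalis* were lower without overlap in both genotypes. Its fitted log2 fold change was -1.14 in N2 (SE 0.312, adjusted p = 0.0117) and -0.81 in *skpo-1* (adjusted p = 0.0706, edgeR QL test). The N2 call was lost without replicate 2 on *E. coli* (-0.91) or replicate 3 on *E. faecalis* (-0.97, adjusted p = 0.0576, edgeR QL test).

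Of the best known members, *gst-4*, whose promoter drives a widely used reporter of SKN-1 activity, was not called. It had 9.94, 30.4, 13.4 and 13.8 CPM in N2 on *E. coli* against 23.4, 20.8 and 24.5 on *E. faecalis*, and 13.4, 13.3 and 17.8 against 26.1, 31.2, 21.5 and 27.1 in *skpo-1*. In *skpo-1* the groups were apart, and in N2 only the 30.4 of replicate 2 on *E. coli* kept them from being so. Its fitted log2 fold change was 0.43 in N2 (adjusted p = 0.255) and 0.84 in *skpo-1* (adjusted p = 0.0628, edgeR QL test). Without replicate 2 of N2 on *E. coli* the N2 value was 0.87 (adjusted p = 0.00243, edgeR QL test), still under the fold limit. *gst-4* (IV 10142225 to 10143099) overlaps *dhs-12* on the same strand, whose change in N2 was -0.70 (adjusted p = 0.0203, edgeR QL test).

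*gst-1* (WBGene00001749, III 9059331 to 9060181), the most abundant member per kb, had 181, 304, 182 and 187 CPM in N2 on *E. coli* against 161, 81.5 and 109 on *E. faecalis*, and 175 to 193 against 157 to 177 in *skpo-1*. Only N2 separated without overlap. edgeR fitted a log2 fold change of -0.86 in N2 (SE 0.226, adjusted p = 0.00948), under the fold limit, and -0.13 in *skpo-1* (adjusted p = 0.692, edgeR QL test). Without replicate 1 of N2 on *E. faecalis* it was called lower in N2 (-1.19).

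*gst-42* (X 11726264 to 11727936), the zeta-class maleylacetoacetate isomerase of tyrosine breakdown, had 10.7 to 21.2 CPM in N2 on *E. coli* against 9.93 to 18.2 on *E. faecalis*, and 9.61 to 13.3 against 17.1 to 20.5 in *skpo-1*. The mutant's groups were apart and those of N2 overlapped widely. Its log2 fold change was -0.06 in N2 (adjusted p = 0.874) and 0.78 in *skpo-1* (adjusted p = 0.0525, edgeR QL test), and the sign in N2 turned with the library left out (0.20 without replicate 2 on *E. coli*).

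The other 24 tested members averaged 0.220 to 52.7 CPM and had log2 fold changes of -1.08 (*gst-30*) to 1.002 (*gst-34*) in N2 and -0.84 (*gst-12*) to 1.61 (*gst-34*) in *skpo-1*. They were positive for 11 of 24 in N2 and 20 of 24 in *skpo-1* (51.2% and 55.7% of all tested genes). The values of *gst-34* rest on 20 counts in N2 and 6 in *skpo-1* on *E. coli*. Only *gst-44* had an adjusted p below 0.05, in N2 (-0.97, adjusted p = 0.0482, edgeR QL test), with a change under the fold limit. Without replicate 2 of N2 on *E. coli*, *gst-2* (1.37), *gst-3* (1.74) and *gst-35* (1.29) were also called higher in N2, and *gst-3* (1.41), *gst-22* (1.03), *gst-23* (1.28) and *gst-40* (1.29) in *skpo-1*. Of the untested genes, *gst-14* had 42 counts in N2 on *E. coli*, 28 of them in replicate 2, and 7 on *E. faecalis*.

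Many of these genes are neighbours, and 24 of 47 lie in 5 runs with no other protein-coding gene between their starts. The longest run, 9 genes over 22.7 kb of chromosome II (13608154 to 13630887), is *gst-20*, *gst-24*, *gst-15*, *gst-14*, *gst-12*, *gst-16*, *gst-19*, *gst-17* and *gst-18*, all on the minus strand. Of its 8 tested genes, 4 were called higher and 1 lower in N2, and 3 higher and 0 lower in *skpo-1*. The 3 at its right end, *gst-19*, *gst-17* and *gst-18*, had 3 of the family's 4 steepest rises in *skpo-1*, next to *gsto-1*, whereas *gst-12* and *gst-16* a few kb away had negative changes in both genotypes, and *gst-20* and *gst-24* stayed within 0.27 of 0. A run therefore did not move as a block.

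The run of *gst-6*, *gst-7* and *gst-8* held opposite calls in neighbours, with *gst-6* higher and *gst-7* lower in N2. Further along chromosome II, the 6 genes *gst-26*, *gst-27*, *gst-28*, *gst-29*, *gst-39* and *gst-31* (15163817 to 15174965) had only *gst-28* called, in *skpo-1*. No gene was called in the run of *gst-32*, *gst-34* and *gst-35*, nor in that of *gst-3*, *gst-2* and *gst-4* on IV. Of 22 tested genes in runs, 5 were called higher and 2 lower in N2 (against 19.2% and 4.1% of all tested genes), and of 21 lone genes 3 higher and 1 lower, with median changes of 0.40 and -0.06. In *skpo-1*, 5 of 22 and 5 of 21 were called higher (against 10% of all tested genes). The difference between the classes was not tested, and reads shared between near-identical neighbours were apportioned by the authors' quantification.

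**Figure D5:**
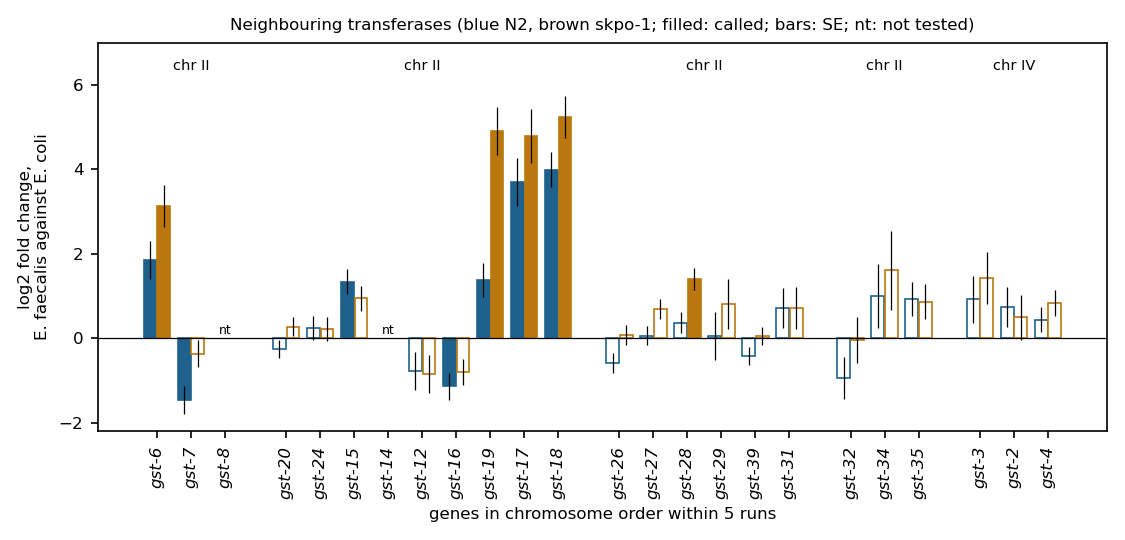
Fitted log2 fold change on *E. faecalis* against *E. coli* (y axis, bars SE) of the 24 transferases in 5 runs of neighbouring genes, in chromosome order along the x axis, with N2 in blue and *skpo-1* in brown, filled where called. In the 9-gene run, values go from -1.14 to 3.99 in N2 and from -0.84 to 5.24 in *skpo-1*, with the steepest rise at *gst-18* in both genotypes.

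The comparison of the genotypes on *E. coli* asked whether the mutant's transferases differed without the pathogen. It shares its groups with the responses, so its values are not independent of them. Of 43 members, 0 were called higher (background 0.567%) and 1, *gst-19*, lower (background 0.0765%), while 6 had an unadjusted p below 0.05 (background 9.4%). Taken as mutant over N2, the median log2 fold change was -0.35, against -0.04 over all genes. Positive changes made up 12 of 43, against 45.8% of all genes. Without replicate 2 of N2 on *E. coli* the median was 0.05 and 22 of 41 were positive (45.2% of all genes). The downward shift thus turned on that library.

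*gst-19* had 3 counts in *skpo-1* and 35 in N2 on *E. coli*, a pooled ratio of 0.113 (95% counting interval 0.0222 to 0.359). All 3 mutant libraries were below all 4 of N2. edgeR fitted a log2 fold change of -2.90 (SE 0.621, adjusted p = 0.0477, edgeR QL test), and the call was lost on leaving out any 1 of the 14 libraries, with adjusted p up to 0.211 and changes of -3.75 to -2.53. Members whose groups also did not overlap on *E. coli* were *gst-10* and *gst-24*, higher in *skpo-1* (background 5.18%), and *gsto-1*, *gst-27*, *gst-28* and *gst-41*, lower like *gst-19* (background 3.25%). For *gsto-1*, at 3.13 to 4.89 CPM in *skpo-1* and 4.90 to 14.8 in N2, the log2 fold change was -1.12 (adjusted p = 0.271), or -0.73 without replicate 2 of N2 on *E. coli* (adjusted p = 0.573, edgeR QL test).

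On *E. faecalis*, 0 of 43 members were called higher in *skpo-1* than in N2 (background 0.0638%) and 0 lower (0.0446%) in the edgeR QL test, while 7 had an unadjusted p below 0.05 (background 7.74%). The median log2 fold change was 0.25, against -0.02 over all genes, and 33 of 43 were positive (47.1% of all genes). Libraries did not overlap for 8 members, all higher in *skpo-1* (background 5.21%), namely *gst-5*, *gst-7*, *gst-10*, *gst-17*, *gst-19*, *gst-38*, *gst-39* and *gsto-2*, and for 0 lower (3.76%). The smallest adjusted p was 0.273, for *gst-38* (1.66, edgeR QL test), which was the 1 member that DESeq2's Wald test called (1.67, adjusted p = 0.00673, background 0.485%). Without replicate 1 of N2 on *E. faecalis*, the library with the highest sum of its group, *gst-7* (1.59, adjusted p = 0.0187) and *gst-10* (1.93, adjusted p = 0.00648) were called higher in *skpo-1* (edgeR QL test, background 0.575%).

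Whether the mutant's response itself differed from that of N2 was tested as a difference of the 2 log2 fold changes, which share no library. No member passed (0 of 43 higher or lower, with 0.0% of all genes passing), and 11 had an unadjusted p below 0.05 (25.6%, against 7.75% of all genes). DESeq2's Wald test called 0 members as well (background 0.0638% higher and 0.293% lower), with 12 at an unadjusted p below 0.05. The median difference was 0.62 in the direction of a higher response in *skpo-1*, against 0.04 over all genes. Positive differences made up 33 of 43, against 53.1% of all genes. Without replicate 2 of N2 on *E. coli* the median was 0.32, with 28 of 41 positive (46.3% of all genes). Then 4 had an unadjusted p below 0.05 (9.76%, against 7.46% of all genes), a smaller share over the background. Other libraries moved this count too. It was 3 of 42 without replicate 2 of N2 on *E. faecalis* (7.14%, against 6.05% of all genes). It was 15 of 43 without replicate 1 of N2 on *E. coli* (34.9%, against 8.84%).

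The 3 called members with the smallest p for this difference were *gst-19*, *gsto-1* and *gst-28*. The difference was 3.53 for *gst-19* (SE 0.733, adjusted p = 0.44), 1.67 for *gsto-1* (SE 0.491, adjusted p = 0.44) and 1.04 for *gst-28* (SE 0.361, adjusted p = 0.483, edgeR QL test). Without replicate 2 of N2 on *E. coli* they were 3.13, 1.3 and 0.73. Thus the members called in one genotype only were not shown to respond differently in the other.

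The genes for the enzymes that make and recycle glutathione were not called in either response. *gcs-1*, the glutamate-cysteine ligase that limits the rate of glutathione synthesis, had 97.0 ± 16.6 CPM (SD, n = 4) on *E. coli* and 94.7 ± 3.07 (n = 3) on the pathogen in N2, and 98.2 ± 1.22 (n = 3) and 94.4 ± 6.12 (n = 4) in the mutant. Its log2 fold change was -0.03 in N2 (adjusted p = 0.859) and -0.06 in *skpo-1* (adjusted p = 0.787, edgeR QL test). For the glutathione synthetase gene *gss-1* the changes were -0.47 (adjusted p = 0.0162) and -0.22 (adjusted p = 0.239), and for the glutathione reductase gene *gsr-1* -0.65 (adjusted p = 0.0147) and -0.26 (adjusted p = 0.303, edgeR QL test), none past the fold limit.

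Over a list of 34 other genes of glutathione and thiol metabolism, all tested, 3 were called higher and 0 lower in N2 (against 19.2% and 4.1% of all tested genes), and 2 higher and 0 lower in *skpo-1* (against 10% and 1.76%). The median log2 fold change was -0.37 and -0.01, against 0.03 and 0.12 over all genes. The called genes were *gpx-3*, a glutathione peroxidase (1.51 in N2, adjusted p = 0.000579, and 1.38 in *skpo-1*, adjusted p = 0.00235), *mrp-5*, an ABC transporter known as a heme exporter (2.05, adjusted p = 0.000261, and 2.14, adjusted p = 0.000429), and the kappa-class transferase gene *gstk-2* (1.33 in N2, adjusted p = 0.00985, and 0.84 in *skpo-1*, adjusted p = 0.106, edgeR QL test). *gpx-3* went from 4.68 ± 1.08 (SD, n = 4) to 13.4 ± 2.41 CPM (n = 3) in N2 and from 3.67 ± 0.149 (n = 3) to 9.53 ± 2.14 (n = 4) in the mutant. Levels of *mrp-5* were 126 ± 39.8 and 525 ± 207 CPM in N2 and 139.7 ± 19.4 and 616 ± 86.4 CPM in the mutant. In both responses 1 of 8 glutathione peroxidases and 1 of 8 MRP-type exporters was called, against 0 of 5 glutaredoxins, 0 of 4 thioredoxins and their reductases and 0 of 3 peroxiredoxins. Between genotypes, only *gstk-1* of the list was called, lower in *skpo-1* on both bacteria.

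Of 6 genes often used as readouts of SKN-1 (*gcs-1*, *gst-4*, *gst-30*, *gst-38*, *nit-1* and *sdz-8*), 0 were called in N2 and 1, *gst-38*, in the mutant. Over all tested genes, 19.2% and 10% were called higher. The median log2 fold change of the 6 was -0.05 and 0.17, and was not measured without replicate 2 of N2 on *E. coli*. As given above, the call of *gst-38* was lost on leaving out single libraries. *skn-1* itself and its negative regulator *wdr-23* were not called in any comparison.

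Many transferases are expressed in the intestine, and markers of tissues were measured beside the results above. All 5 intestinal markers were detected, none at 0, and their sum was 629 to 1095 CPM in N2 on *E. coli*, 1354 to 1608 in N2 on *E. faecalis*, 892 to 1062 in *skpo-1* on *E. coli* and 1517 to 1846 in *skpo-1* on *E. faecalis*. The sum was higher on *E. faecalis* without overlap in both genotypes, and 2 of 5 markers were called higher in N2 and 1 in the mutant. Of the other lists, 1 of 5 epidermal markers was called higher and 1 lower in N2 and 0 and 1 in *skpo-1*, 2 and 0 of 4 neuronal markers were called higher, and 3 of 6 yolk genes were called lower in each genotype. Of 28 tested major sperm protein genes, 25 were called higher in N2 and 0 in *skpo-1*, and no body wall muscle or germline marker was called. Still, in *skpo-1* the muscle sum was 3311 to 4385 CPM on *E. coli* against 480 to 2171 on *E. faecalis*. The germline sum there was 1128 to 1295 against 420 to 986 CPM. In N2 both sums overlapped, each only through replicate 2 on *E. coli*. The other N2 libraries on *E. coli* held 3791 to 3899 CPM of muscle markers, against 1861 to 2410 on *E. faecalis*. Their germline sum was 1242 to 1348 against 881 to 1093 CPM. The epidermal sum was lower and the neuronal sum higher on *E. faecalis* without overlap in both genotypes, although 4 of 5 epidermal markers had positive changes. The part of these shifts in the transferase values was not tested.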

How the data were processed

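The authors trimmed paired reads with Trimmomatic 0.36, quantified them with salmon 1.2.1 against the WBcel235 transcriptome and summarised them per gene. The deposited expected counts were whole numbers, as rounded by the authors. A second deposited table holds the signal that the authors obtained by normalizing these counts with DESeq2 1.26.0 in R 3.6.3, and it served only as an alternative, on log2(value + 1) with limma. Gene names matched 19793 of 21982 identifiers, and 21896 were found in the Ensembl annotation that gave all coordinates.

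The members, the lists and the tests were chosen with earlier results of these data known. Genes were kept by filterByExpr (minimum count 10, minimum total 15). All 14 libraries entered 1 fit in edgeR 4.0.16 (R 4.3.3) with TMM scaling and 1 coefficient per group, and the scripts were tested on simulated data. The common biological coefficient of variation was 0.293. For well-counted members it set the precision more than depth did, while depth also limited members with few counts on *E. coli*. GEO's labels speak of biological replicates. Count intervals are at the 95% level and cover counting error only. Levels of different genes were compared as CPM per kb of exons.

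Members called in any comparison were named, with every library's value for the 8 of smallest adjusted p per response, together with *gst-1*, *gst-4*, *gst-10*, *gst-42*, the omega class, the 3 members highest per kb and the 3 called members of smallest p for the difference between responses. Alternatives were DESeq2 size factors, DESeq2's Wald test (1.42.0), limma 3.58.1 on the normalized table, no filter, only the compared groups, a replicate block, other thresholds and leaving out each library. Leaving out 2 libraries low in muscle markers together was added after seeing the data. Promoter and protein sequences were not analysed here.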

Additional observations from a re-analysis of the deposited data

Results flagged for a closer look

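Single libraries stood far from the rest of their group in 12 of 86 groups of 4 tested (43 members in each of 2 groups). The measure was the gap to the nearest library as a share of the group's range, with a limit that chance passes about 1 time in 20. The share of all tested genes past this limit was not measured, and the members share their libraries. The 12 are therefore a list of libraries to check, with no background to set them against. Replicate 2 of N2 on *E. coli* was the library in 7 of the 12. Among the named genes it was the high library for *gst-28* (share 0.974), *gst-1* (0.9498) and *gst-42* (0.875). In *skpo-1* on *E. faecalis*, replicate 3 was low for *gst-15* (0.863), and replicate 2 was high for *gst-16* (0.833) and *gst-19* (0.843). The weight of these libraries in each gene's change was measured by leaving each library out.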

How the results depend on the processing

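In N2, the count called higher was 5 of 40 with only the compared groups fitted (2033 of 14997 over all tested genes). At an adjusted p below 0.01 it was 5 of 43 (1822 of 15685). Leaving out single libraries gave 6 to 11 members, against 2050 to 3572 of all tested genes. The count called lower was 1 with only the compared groups (420 of 14997). It was 5 with no limit on the fold change (2276 of 15685). On leaving out single libraries it was 2 to 6, against 391 to 1087 of all tested genes. Fitting only the compared groups lost *gst-10* (adjusted p = 0.0543), *gst-16* (0.0682), *gst-19* (0.0554) and *gst-23* (0.0696, edgeR's quasi-likelihood F test) in N2. There *gsto-2*, with *gst-31* and *gst-34*, had too few counts to be tested among the 40 members. In *skpo-1* the count called higher was 13 of 40 with only the compared groups fitted (2104 of 14598 tested genes). At an adjusted p below 0.01 it was 8 of 43 (644 of 15685). Leaving out single libraries gave 8 to 14, against 592 to 2003 of all tested genes. Between genotypes on *E. coli*, the count called lower was 0 without a filter, with DESeq2, with only the compared groups, with the replicate block, at an adjusted p below 0.01, without both libraries low in muscle markers, and 0 to 0 on leaving out single libraries. Over all tested genes, those fits on *E. coli* called 6 to 37 lower. On *E. faecalis* the count called higher was 1 with DESeq2 (76 of 15685). It was 0 to 2 on leaving out single libraries, against 4 to 93 of all tested genes. The change of *gst-42* in N2 was -0.37 to 0.20 on leaving out single libraries and turned positive (0.20, 0.01 and 0.12 without replicate 2 of N2 on *E. coli* or replicates 2 and 3 of N2 on *E. faecalis*, and 0.20 without both libraries low in muscle markers). The cause of these shifts was not tested. Replicate numbers were not taken as pairs in the main fit. Of 19 same-numbered pairs of libraries, 9 correlated above 0.1 (range -0.527 to 0.245). Pairs with different numbers were not measured, so these values do not decide whether the libraries were paired. With the replicate block, 8 members were called higher and 4 lower in N2 (2720 and 599 of 15685 tested genes). In *skpo-1*, 9 were called higher and 0 lower (1285 and 250 of all tested genes). There *gsto-2* was lost (1.89, adjusted p = 0.0581, edgeR's quasi-likelihood F test). Lost as well was *gst-19* between genotypes on *E. coli* (-2.97, adjusted p = 0.0681, edgeR's quasi-likelihood F test). Leaving out both libraries low in muscle markers was chosen after seeing the data.

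Depth limits members whose counts on *E. coli* were few, among them *gst-17*, *gst-18*, *gst-19*, *gst-23*, *gst-31*, *gst-34*, *gsto-2* and the 4 untested members. Groups of 3 or 4 libraries limit the rest. The sources used here do not give the strandedness of the libraries, and bacterium and plate medium cannot be told apart.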
